A study of Mus musculus with 4 samples.

Results

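Genes for the proteins of the cytosolic ribosome were followed in cardiac endothelium, the cells that line the vessels of the heart, after injection of mice with lipopolysaccharide (LPS) or saline. LPS is an outer membrane component of Gram-negative bacteria that is sensed through Toll-like receptor 4. The members were all genes whose symbol in the platform annotation starts with Rpl or Rps and a number. The stalk genes Rplp0, Rplp1 and Rplp2, and Rpsa, were members too. Symbols of S6 kinases, and symbols marked as pseudogenes (holding -ps) or retrogenes (ending in rt), were left out. This exclusion went by symbol only. The members were 70 of the 11138 genes measured, 45 of the large and 25 of the small subunit. Each member was represented by 1 long oligonucleotide printed in 2 neighbouring spots. The 70 genes included 7 paralogs of standard ribosomal proteins (Rpl3l, Rpl7l1, Rpl22l1, Rpl36al, Rpl39l, Rps4l and Rps27l).

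The groups were amplified RNA of cardiac endothelium 4 h after intraperitoneal LPS, set on the same array against that of mice given saline, and the same comparison at 24 h. There were 4 two-colour arrays, 2 per time. LPS RNA carried Cy5 on array 1 and Cy3 on array 2, a reversal of the dyes. Strain, age, LPS dose, the number of animals and whether both times shared their saline RNA are not given in the labels. No separate animals or extracts were named for the reversed array, so a pair of arrays counted as 1 replicate. A value written with ± is therefore the mean and SD (n = 2 arrays), and this SD holds the error of array and dye but no variation among mice. There is no test between LPS and saline, and a member was called higher or lower where each array showed a change of 2-fold or more (1 log2 unit) in that direction.

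The mammalian ribosome consists of a small subunit, which decodes the messenger RNA, and a large subunit, which forms the peptide bonds and carries the exit tunnel of the new chain. Their proteins are small and mostly basic, are for the most part needed in equal numbers, and are encoded by strongly expressed genes scattered over the genome. Their messenger RNAs start with a 5′ terminal oligopyrimidine (TOP) tract, a C followed by a run of C and T, through which the kinase mTOR and the protein LARP1 control their translation and stability. Many of these genes also have processed copies elsewhere in the genome. The oligonucleotide sequences were not used here, so signal from such near-identical copies could not be told from that of the named gene.

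All values below are log2 ratios of LPS over saline. This direction is likely from the dyes given for each array and is not stated in the deposited table. The deposited values of the 2 arrays of a time correlated across all 32448 spots at only -0.056 at 4 h and -0.064 at 24 h. The sign of array 2 was turned, since LPS RNA carried the other dye there. Before turning, 14 members at 4 h were 2-fold on both arrays with opposite signs and 2 with the same sign, and at 24 h these numbers were 17 and 3. Members with opposite signs are those called below, so these counts restate the calls and do not test the sign. Of all genes, 2.25% called higher and 0.997% called lower had opposite signs at 4 h, beside 1.42% with the same sign. At 24 h these shares were 3.48%, 3.52% and 3.69%. If the table had already been turned, the called members would lie in opposite directions on the 2 arrays. After turning, the 2 arrays correlated across the 70 members at 0.14 at 4 h and at 0.54 at 24 h. Across all genes these correlations were 0.12 at both times. Members share the arrays and are not independent, so these correlations are descriptions. The SD over all genes was 1.20 and 0.73 on the arrays of 4 h and 1.17 and 1.14 on those of 24 h.

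The start sites show what the members share in sequence. RefSeq promoters of assembly GRCm38.p6, running from 250 bases before to 50 bases after the start, matched 58 of the 70 members. The 40 bases centred on the annotated start are shown for 9 called members with a single promoter. These are examples, and other called members with a single promoter are not shown. Of these, Rps10, Rps18 and Rplp2 were called higher at 4 h, Rps7 at both times, and Rpl13a, Rpl27, Rpl12 and Rpl35 at 24 h, while Rpl24 was called lower at 4 h. Capitals mark the pyrimidine run that starts with C, goes on for at least 4 further C or T and begins nearest to the start site, which lies after base 20.
Rps10, chr17:27635225-27635264, minus strand: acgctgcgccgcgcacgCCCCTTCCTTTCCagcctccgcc
Rps18, chr17:33955646-33955685, minus strand: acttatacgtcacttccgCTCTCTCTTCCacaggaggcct
Rplp2, chr7:141447631-141447670, plus strand: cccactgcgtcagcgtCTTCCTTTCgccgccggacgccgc
Rps7, chr12:28635934-28635973, minus strand: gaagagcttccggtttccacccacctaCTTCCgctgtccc
Rpl13a, chr7:45128726-45128765, minus strand: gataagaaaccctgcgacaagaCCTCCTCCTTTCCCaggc
Rpl27, chr11:101442225-101442264, plus strand: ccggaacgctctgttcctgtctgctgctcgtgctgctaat
Rpl12, chr2:32961692-32961731, plus strand: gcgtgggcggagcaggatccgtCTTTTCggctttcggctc
Rpl35, chr2:39005112-39005151, minus strand: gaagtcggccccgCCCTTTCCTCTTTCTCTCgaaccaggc
Rpl24, chr16:55966255-55966294, plus strand: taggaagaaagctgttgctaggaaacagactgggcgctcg

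The run was 13 bases long in Rps10, 14 in Rpl13a and 18 in Rpl35, but only 5 in Rps7 and 6 in Rpl12. No such run was in the windows of Rpl27 and Rpl24. Among the called members with a single promoter that are not shown, Rpl10 had no run. In the others of these the run was 5 bases (as in Rplp0) to 11 bases (Rps12) long. Counted on the gene's strand, 45 of the 58 matched members (77.6%) had one in the window, against 51.4% of the 27025 genes of the promoter table. The share was 78.4% of 37 large-subunit and 76.2% of 21 small-subunit genes. Among matched members called higher at either time it was 21 of 23, and among the others 24 of 35. The letters CCGGAA, the core recognised by ETS-family factors, were on either strand in 32 of the 58 promoters (55.2%). Among all genes of the promoter table, measured here or not, the share was 16.7%. The median share of G and C letters was 57% in the members and 52.75% in that table, and its part in these counts was not tested. Of the members called higher at either time 12 of 23 held them, and of the others 20 of 35. A match of letters is a description and not a binding site.

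At 4 h, 13 of the 70 members were called higher and 1 lower. This was 18.6% of the members, beside 2.25% of all genes called higher and 0.997% called lower. The median of the members was 0.50, against -0.016 over all genes. It differed between the arrays, at 0.68 on array 1 and 0.0069 on array 2, so the shift of the whole list at 4 h rests on array 1. On array 2 by itself 20 members lay at least 2-fold above 0, beside 7% of all genes, and on array 1 by itself 25, beside 11.4% of all genes. Both arrays were above 0 for 34 members (48.6%), beside 24.3% of all genes, and below 0 for 10, beside 25.6% of all genes. Of the 13 called higher, 11 were 2-fold in every one of their 4 spots. In bulk RNA, more RNA per cell and a change in which cells were collected cannot be told apart, and every ratio is relative to the median gene of its array.

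Small-subunit genes held the highest called values of 4 h. Rps10, a protein of the beak of the small subunit at the messenger RNA entry, stood at 2.45 and 2.12 on the 2 arrays, a mean of 2.28 ± 0.23 or 4.87-fold. Rps14, which lies near the platform of the small subunit, stood at 2.14 and 2.33, a mean of 2.24 ± 0.13. Both arrays were high for these genes, although the 4 spots of Rps14 ranged from 1.24 to 3.04. Rps7, which helps in processing of small-subunit ribosomal RNA, was at 2.06 and 1.33. Rps18, at the top of the small-subunit head, was at 1.22 and 1.98. Rps19, the gene most often mutated in Diamond-Blackfan anaemia, was at 1.93 and 1.19. The 5 called small-subunit genes had means from 1.56 to 2.28.

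Of the large subunit, 8 genes were called higher at 4 h and they included parts of the stalk, the flexible arm that recruits elongation factors. Rplp0, the base of the stalk, was at 1.78 and 2.29, a mean of 2.03 ± 0.36. Rplp2, one of the acidic proteins bound to it, was at 1.53 and 1.73, while its partner Rplp1 at 0.33 and 1.14 and Rpl12, beside the stalk base, at 0.76 and 0.47 were not called. All 4 stalk genes were above 0 on both arrays. Rpl19, near the exit tunnel, was at 1.59 and 2.31. Rpl10, which joins the large subunit last and completes its active centre, was at 1.72 and 1.11. Rpl22l1 was at 1.92 and 1.29. The other called large-subunit genes were Rpl36al at 1.34 ± 0.15, Rpl37a at 1.19 ± 0.04 and Rpl7 at 1.10 ± 0.09. The small SD of Rpl36al did not mean that its spots were alike, as they ran from 0.011 to 2.87. The lowest of them had a ratio of exactly 1 before centring, and without it the mean of Rpl36al was 2.07.

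Rpl24, a large-subunit protein that bridges to the small subunit, was the 1 member called lower at 4 h. It stood at -2.09 and -1.79, a mean of -1.94 ± 0.21. Its spots on array 1 were 0.80 and -4.98, and those on array 2 were -1.0 and -2.58, so the mean of array 1 rests on 1 spot. At 24 h Rpl24 was at -0.075 and -2.65 and was not called.

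**Figure D1:**
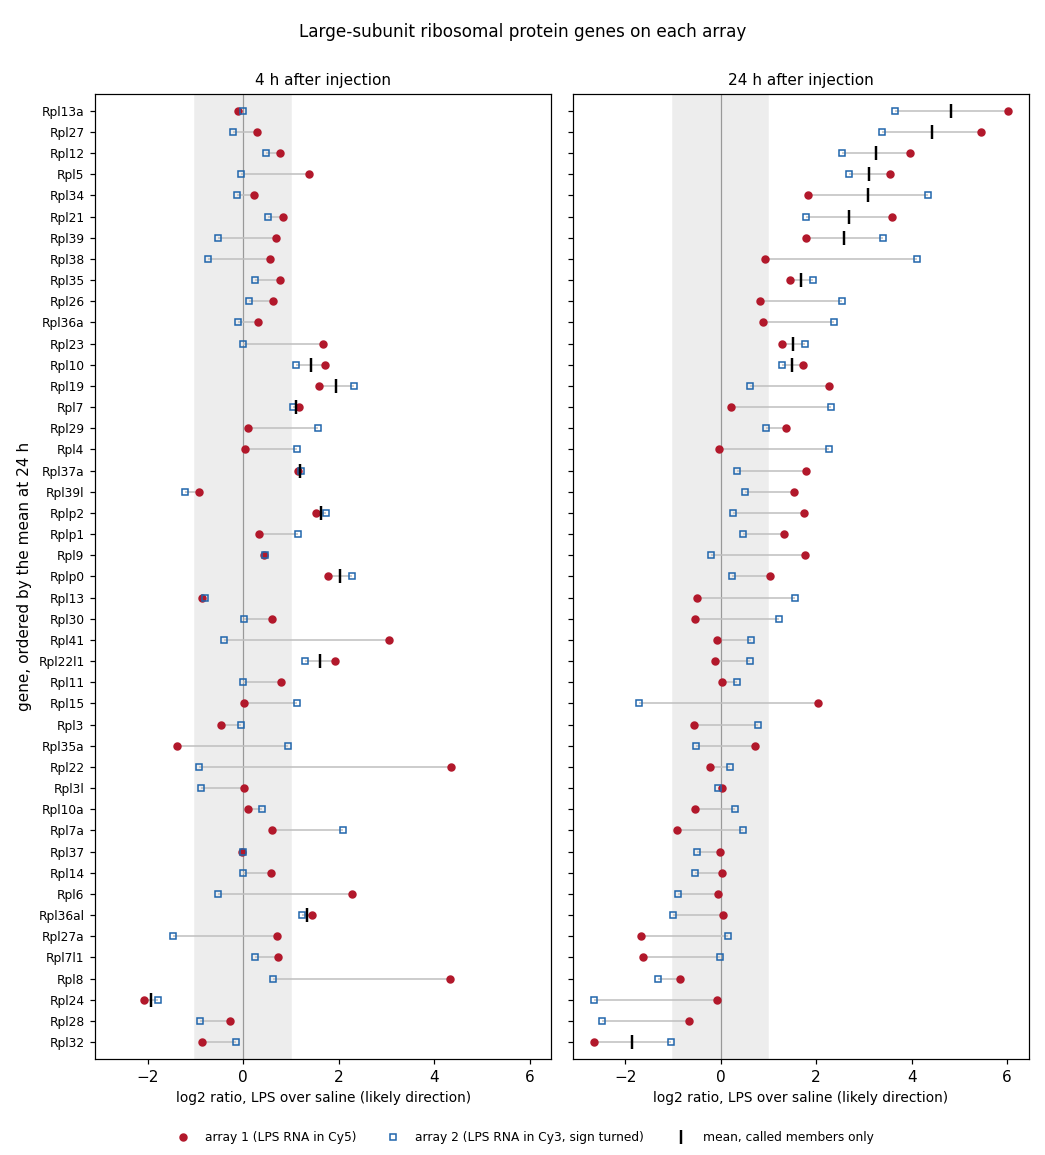
Log2 ratios of the 45 large-subunit genes on array 1 (filled circles) and array 2 (open squares, sign turned) at 4 h and 24 h, ordered by the mean at 24 h, with black bars at the means of called genes and grey shading within 2-fold. Rpl13a, Rpl27 and Rpl34 lie near 0 at 4 h and far to the right on both arrays at 24 h, while Rplp0 and Rpl19 are called at 4 h.

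Several members were far from 0 on 1 array of 4 h only. Rps12, a protein of the small-subunit head, was at 5.27 on array 1 and -0.32 on array 2. Rpl8, near the peptidyl transferase centre, was at 4.33 and 0.63, Rpl22 at 4.35 and -0.93, and Rpl41, the smallest ribosomal protein, at 3.05 and -0.40. These 4 genes had the highest values of all members on array 1 and none was called. Rps16 and Rps3a1 were 2-fold on both arrays in opposite directions, Rps16 at -3.21 and 1.39 and Rps3a1 at 2.92 and -1.39. That was 2 of 70 members, beside 1.42% of all genes. For Rps16 a single spot at -6.93 set the value of array 1, whereas both spots of Rps3a1 were close to each other on each array.

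At 24 h, 16 of the 70 members were called higher and 1 lower. This was 22.9% of the members, beside 3.48% of all genes called higher and 3.52% called lower. The median was 0.53, with 0.68 on array 1 and 0.46 on array 2, against -0.021 over all genes. Both arrays were above 0 for 31 members (44.3%), beside 26.1% of all genes, and below 0 for 8, also beside 26.1% of all genes. Of the 16 called higher, 15 were 2-fold in all of their spots, the exception being Rps27l, and none had a spot with a ratio of exactly 1. Called means ran from 1.21 to 5.59, while the highest at 4 h was 2.28.

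The 6 called small-subunit genes were led by Rps29, a zinc-binding protein of the small-subunit head, which had the highest mean of all genes measured. Its values were 7.27 and 3.92, a mean of 5.59 ± 2.38 or 48.3-fold. On each array its duplicate spots agreed to less than 0.5 log2 units, but the arrays themselves stood 3.92 and 7.27 above 0, so its size is loosely set. Rps23, which lines the decoding centre, stood at 3.56 and 3.28, a mean of 3.42 ± 0.20, and all 4 of its spots lay between 3.22 and 3.65. Rps24, in the body of the small subunit, was at 2.39 and 3.99. Rps12 was at 3.33 and 2.01, so here both arrays were high, unlike at 4 h. Rps7 was at 1.67 and 2.51, and the paralog Rps27l, a p53-induced relative of Rps27, at 1.20 and 1.22. Rps19 just missed the threshold, at 2.68 and 0.99.

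**Figure D2:**
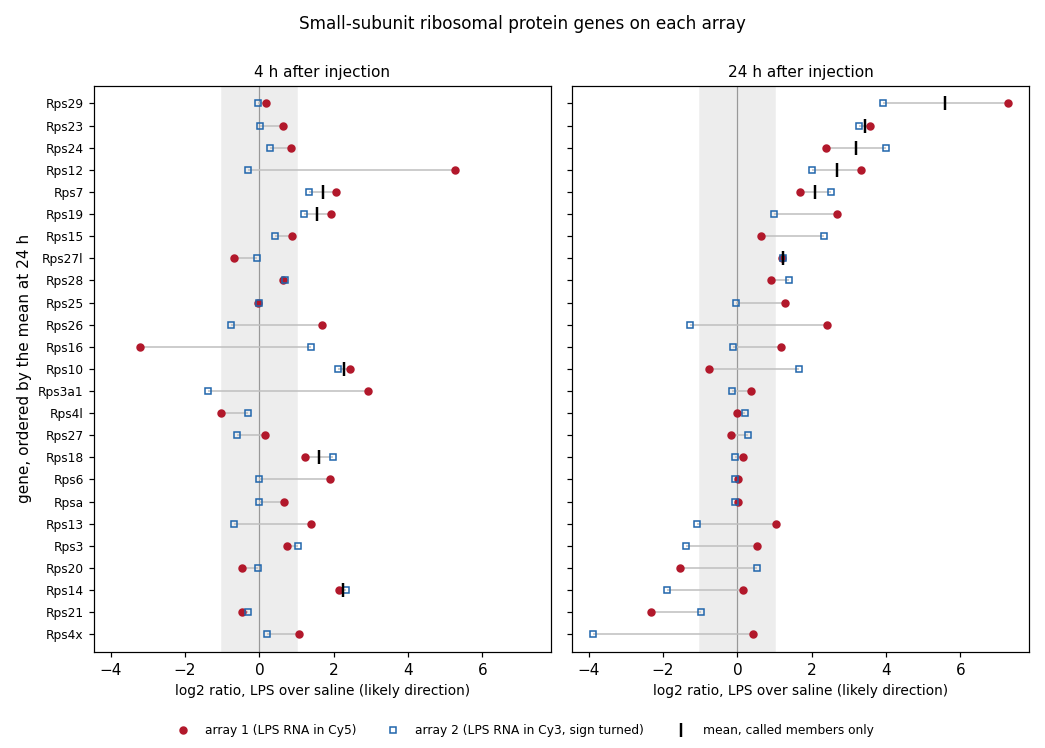
Log2 ratios of the 25 small-subunit genes on array 1 (filled circles) and array 2 (open squares, sign turned) at 4 h and 24 h, with the same marks as for the large subunit. Rps29, Rps23 and Rps24 lie within 2-fold of 0 on both arrays at 4 h and above that range on both at 24 h. Rps10, Rps14 and Rps18 lie above that range on both arrays at 4 h. At 24 h only Rps10 of these is still above it, on array 2.

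In the large subunit, 10 genes were called higher at 24 h. Rpl13a, which also serves in the GAIT complex that represses inflammatory messenger RNAs in interferon-treated myeloid cells, was at 6.01 and 3.65, a mean of 4.83 ± 1.67 or 28.5-fold. Rpl27 was at 5.45 and 3.39, a mean of 4.42 ± 1.46. Rpl12, at the stalk base, was at 3.97 and 2.55 and Rpl34 at 1.83 and 4.35. Rpl5, which carries the 5S ribosomal RNA and with Rpl11 binds Mdm2, was at 3.54 and 2.68. Rpl11 stood at 0.022 and 0.34, but 3 of its spots had a ratio of exactly 1. It could therefore not be read as unaltered. Rpl21 was at 3.59 and 1.78. Rpl39, in the wall of the exit tunnel, was at 1.79 and 3.39, and its tunnel neighbour Rpl35 at 1.45 and 1.93. Rpl23 was at 1.27 and 1.77 and Rpl10 at 1.72 and 1.28. The order of the arrays varied among these 10 genes, and array 1 was the higher in 9 of the 16 called genes of both subunits.

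Rpl32, a large-subunit protein, was the 1 member called lower at 24 h, at -2.66 and -1.05, a mean of -1.86 ± 1.14. Its value on array 2 lay at the threshold, and the call was lost without centring and under scale or quantile normalization. Other members had low means that were not called. Rps4x, an X-linked small-subunit gene, was at 0.41 and -3.88, Rps21 at -2.33 and -0.99, Rpl28 at -0.66 and -2.48. On array 1 the spots of Rps21 were 0.88 and -5.53 and those of Rpl28 -3.54 and 2.21, so each of these values rests on 1 spot. Rpl15 at 2.04 and -1.72, Rps26 at 2.41 and -1.28 and Rps13 at 1.03 and -1.08 were 2-fold in opposite directions, which made 3 of 70 members, beside 3.69% of all genes. Duplicate spots were far apart here too. Those of Rps13 were -0.10 and 2.16 on array 1 and -0.063 and -2.10 on array 2. On array 1 those of Rpl15 were 3.76 and 0.32 and those of Rps26 4.11 and 0.72. Rpl38 was the highest mean not called, at 0.94 and 4.11.

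**Figure D3:**
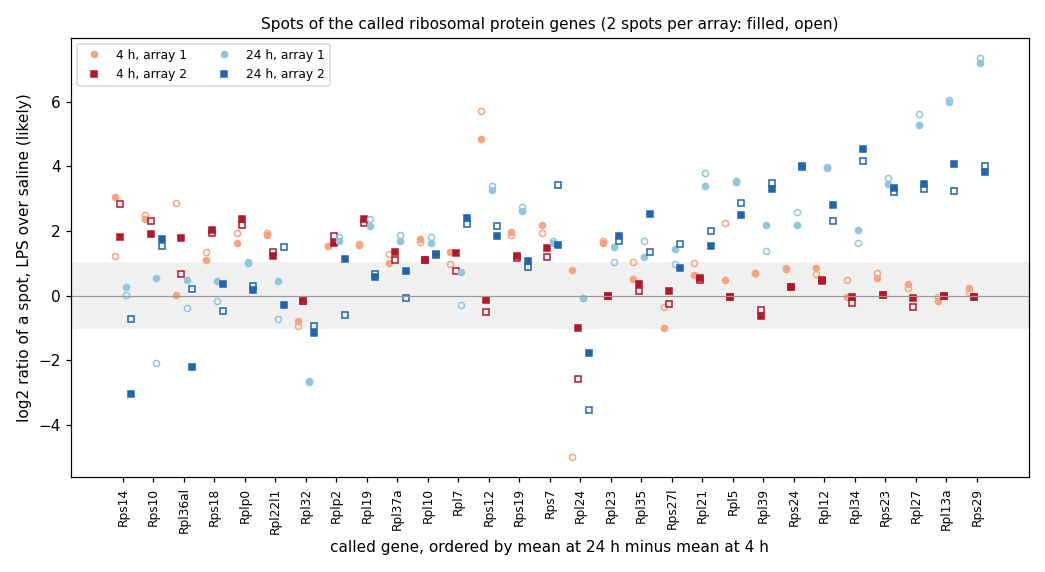
Log2 ratio of every spot of the 29 members called at either time, with 2 spots (filled and open) on each of the 4 arrays and genes ordered by the mean at 24 h minus that at 4 h. Spots of Rps23, Rpl27, Rpl13a and Rps29 at the right lie near 0 on both arrays of 4 h and above 3 on both arrays of 24 h, and the spots of Rpl24 on array 1 of 4 h are far apart.

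In all, 27 members were called higher at one or both times, and of these Rpl10 and Rps7 at both. Of all genes, 585 were called higher at one or both times and 54 at both, a share close to that of the members. The times may share saline RNA. Rpl10 had means of 1.41 ± 0.43 and 1.5 ± 0.31, and Rps7 of 1.70 ± 0.52 and 2.09 ± 0.59. Times were taken as separated for a member if its means were 1 log2 unit or more apart and the arrays of 4 h did not overlap with those of 24 h. By this rule 17 members were higher at 24 h, where 9.43% of all genes were so, and 12 were lower, where 10.3% of all genes were so.

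Rps29, Rpl13a and Rpl27, which had the largest differences, were near 0 at 4 h. Rps29 was at 0.18 and -0.029 at 4 h and its mean differed by 5.52 between the times. Rpl13a, at -0.10 on array 1 of 4 h and with both spots at a ratio of 1 on array 2, differed by 4.89, and Rpl27, at 0.30 and -0.21, by 4.37. Rps23 differed by 3.10, Rpl34 by 3.04, Rpl12 by 2.64 and Rps24 by 2.63. Rpl38 differed by 2.61, Rpl39 by 2.52, Rpl5 by 2.45, Rpl39l by 2.09 and Rpl21 by 2.01. In the opposite direction Rpl8 differed by -3.57 and Rps14 by -3.11. Rps14 stood at 0.14 and -1.88 at 24 h. Rps10 fell by 1.84 between the means of the times, Rps18 by 1.56 and Rplp0 by 1.40. At 24 h these 3 genes had means of 0.44, 0.046 and 0.63. Rps10 was still at 1.65 on array 2 of 24 h. Its -0.76 on array 1 came from spots at 0.56 and -2.09, so that value rests on 1 spot.

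**Figure D4:**
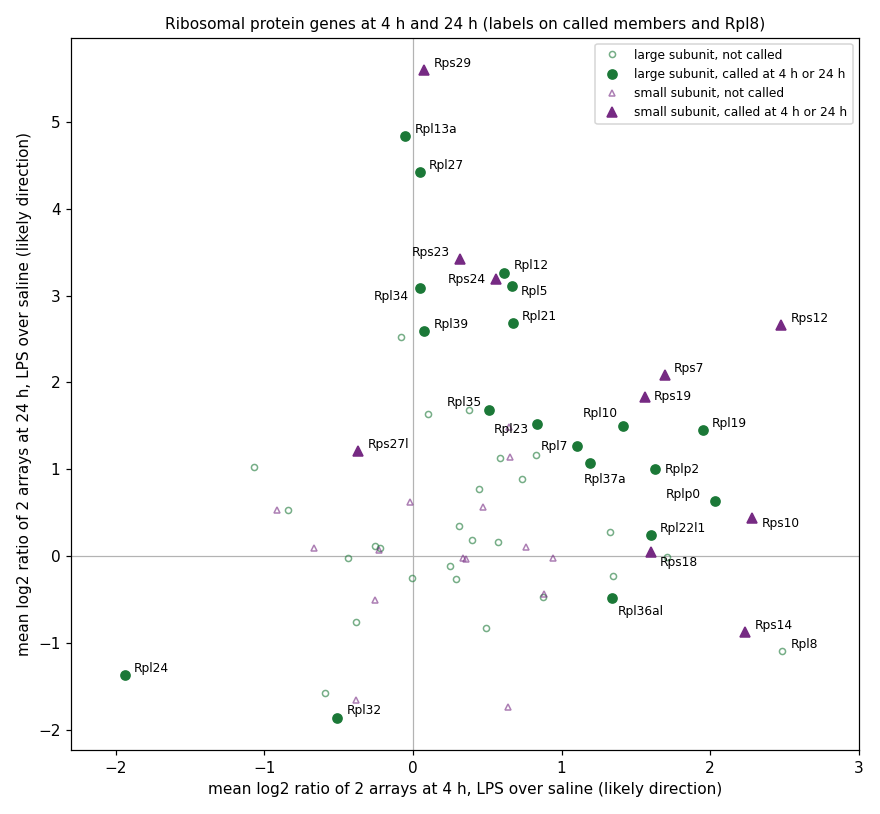
Mean log2 ratio of the 2 arrays at 4 h (horizontal axis) and at 24 h (vertical axis) for each of the 70 members, with large-subunit genes as circles, small-subunit genes as triangles and called genes filled. Rps29, Rpl13a and Rpl27 sit at the top near 0 on the 4 h axis, Rps10 and Rps14 lie to the right, and Rpl10 and Rps7 were called at both times.

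The subunits were set side by side. At 4 h, 8 of 45 large-subunit genes (17.8%) and 5 of 25 small-subunit genes (20%) were called higher, with medians of 0.49 and 0.56. At 24 h these were 10 of 45 (22.2%) and 6 of 25 (24%), with medians of 0.63 and 0.44. The small-subunit median minus the large-subunit median was 0.070 at 4 h, with 0.24 on array 1 and -0.014 on array 2, and -0.19 at 24 h, with -0.065 and -0.31. These differences are no larger than the change between arrays at 4 h, where the sign also changed with quantile normalization. At 24 h the difference turned to 1.12 over the 27 members that had duplicate spots within 0.5 log2 units and no ratio of exactly 1. Both called lower members, Rpl24 and Rpl32, belong to the large subunit. Cumulative curves of the subunits lie close together and to the right of the curve of all genes.

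**Figure D5:**
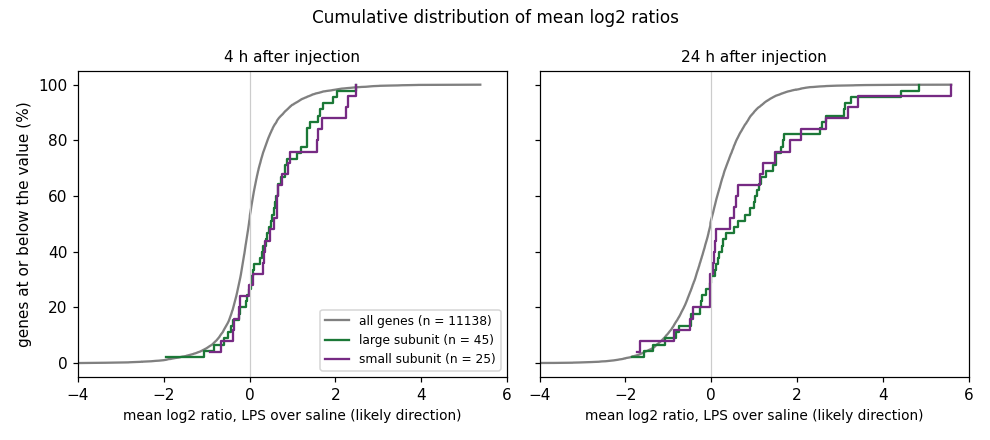
Cumulative share of genes (percent) by mean log2 ratio of the 2 arrays at 4 h and 24 h, for all 11138 genes (grey), the 45 large-subunit genes (green) and the 25 small-subunit genes (purple). The curves of the subunits cross each other and lie right of that of all genes through the middle of the range, with medians of 0.49 and 0.56 at 4 h and 0.63 and 0.44 at 24 h.

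Within the ribosome, 11 genes of the small-subunit head were measured. Of these, Rps10, Rps18 and Rps19 were called higher at 4 h and Rps12 and Rps29 at 24 h, with medians of 0.65 and 0.62. Of a list of 7 proteins near the opening of the exit tunnel 4 were measured, Rpl19, Rpl26, Rpl35 and Rpl39, and their median was 0.45 at 4 h and 1.68 at 24 h. All 4 were above 0 on both arrays at 24 h, with Rpl26 at 0.82 and 2.54 not called. Rpl4, which forms a constriction deeper in the tunnel and was not on this list, was at -0.027 and 2.28 at 24 h and was not called. The stalk group had a median of 1.18 at 4 h and of 0.95 at 24 h. Groups of so few genes are a description only.

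Paralogs were compared with the standard gene they resemble. Rpl36al was above Rpl36a at 4 h, where Rpl36a stood at 0.31 and -0.12, by 1.24 in the mean. At 24 h it was below it by 2.11, with Rpl36a at 0.89 and 2.37 and Rpl36al at 0.044 and -1.0. Their arrays did not overlap at either time, but the spots of Rpl36al were far apart. Rps27l lay above Rps27 at 24 h by 1.15, with Rps27 at -0.16 and 0.29. Rpl39l was below Rpl39 at both times, by 1.14 and 1.57, and stood at -0.93 and -1.21 at 4 h and at 1.54 and 0.51 at 24 h. Rpl7l1 was below Rpl7 at both times, by 0.61 and 2.09. Rpl22l1 was called at 4 h, while Rpl22 was high on array 1 only. Rpl3 was within 1 log2 unit of 0 on all arrays, while Rpl3l could not be read, with a ratio of exactly 1 in 7 of its 8 spots. Rps4l lay below Rps4x on both arrays at 4 h only. Leaving out the 7 paralogs gave 11 called higher of 63 members at 4 h and 15 at 24 h.

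The remaining 41 members were called at neither time. Means of the 56 members not called at 4 h ran from -1.07 to 2.48 at that time. The highest were Rps12, which was called at 24 h, and Rpl8. Means of the 53 members not called at 24 h ran from -1.73 to 2.52 at that time. Some members called at neither time had ratios of exactly 1 in many spots, which may be measured or filled in. Rpsa, the laminin receptor protein of the small subunit, had a ratio of 1 in 7 of its 8 spots, and Rps6, the target of S6 kinases, likewise in 7 of 8. At each time 13 members had at least 1 such spot. Such ratios made up 5.71% and 13.6% of the members' spots on the arrays of 4 h and 10% and 9.29% on those of 24 h, beside 5.03%, 8.01%, 6.43% and 5.72% of all named spots. These genes could therefore not be read as unaltered. Duplicate spots lay closer for the members than for all named oligonucleotides on each array, at median differences of 0.18 to 0.38 log2 units against 0.24 to 0.49. Spots with a ratio of exactly 1 enter these differences and agree by construction.

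When the 2 arrays of a time were taken as separate samples in limma, 0 members and 0 genes reached an adjusted p under 0.05 at either time. At an unadjusted p under 0.05 there were 15 members at 4 h, beside 4.77% of all genes, and 20 at 24 h, beside 6.44% of all genes. For the difference between the times there were 15 members, beside 7.3% of all genes. The lowest adjusted p of a member in limma was 0.88 at 4 h and 0.77 at 24 h.

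Other genes of protein synthesis were taken from lists chosen with earlier results known. Of 21 initiation factor genes, 3 were called higher at 4 h (14.3%) and 4 at 24 h (19%), and none lower. Of all genes, 2.25% were called higher at 4 h and 3.48% at 24 h. Eif2b2, a subunit of the exchange factor of eIF2, was at 2.21 ± 0.56 and 1.12 ± 0.10, and the eIF3 subunit Eif3c at 1.52 ± 0.66 and 1.45 ± 0.53, both called at both times. The helicase Eif4a1 was called at 4 h at 1.76 ± 0.30, and Eif3f at 1.78 ± 0.13 and Eif4g2 at 1.68 ± 0.25 were called at 24 h. Among 12 elongation and release factor genes, none was called at 4 h and 16.7% were called higher at 24 h. These were Eef1a1, which brings aminoacyl-tRNA and has a TOP messenger RNA, at 2.67 ± 1.11 and Eef1b2 at 1.40 ± 0.38. Medians of these lists were 0.51 and 0.40 at 4 h and 0.42 and 0.37 at 24 h.

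Genes that build ribosomes were read next. Of 39 ribosome biogenesis genes, 4 were called higher at 4 h (10.3%) and 3 at 24 h (7.69%), and none lower, with medians of 0.46 and 0.12. Of all genes, 2.25% and 3.48% were called higher at these times. Npm1, the nucleolar chaperone nucleophosmin, was called at both times, at 1.59 ± 0.21 and 1.98 ± 0.12. The nuclear export adaptor Nmd3 at 2.78 ± 1.83, Gnl2 at 1.55 ± 0.54 and Pno1 at 1.64 ± 0.75 were called at 4 h, and Dkc1, the pseudouridine synthase dyskerin, at 3.20 ± 2.65 and Exosc5 at 1.21 ± 0.09 at 24 h. None of 12 RNA polymerase I genes was called. Of 16 genes around mTOR and TOP control, Myc, a transcriptional activator of ribosomal genes, was called at 4 h at 2.50 ± 1.03 and stood at -2.78 and 1.08 at 24 h. Cnbp, a binder of TOP messenger RNAs, was called at 4 h at 1.42 ± 0.22, and the mTOR subunit Mlst8 was called lower at 24 h at -1.10 ± 0.06. Of this list, 12.5% were called higher at 4 h and 0% at 24 h. At 24 h 6.25% of the list were called lower, beside 3.52% of all genes. Mtor itself was at 0.45 ± 0.0014 and 0.61 ± 0.51.

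Of proteins that work on the ribosome, 5 partner genes were measured and Btf3, a subunit of the nascent chain complex, was called at 24 h at 2.97 ± 2.75. Fau, whose product yields the small-subunit protein RPS30 but whose symbol lies outside the rule, was at 1.87 on array 1 and at 0 on array 2 at 4 h and was not called. The 66 mitochondrial ribosomal protein genes, which encode a separate ribosome of bacterial type, had a median of 0.0086 at 4 h and 0.29 at 24 h. Of them, 2 (3.03%) were called higher and none lower at 4 h, beside 2.25% and 0.997% of all genes. At 24 h, 4 (6.06%) were called higher and 3 (4.55%) lower, beside 3.48% and 3.52% of all genes. The difference from the cytosolic set was not tested.

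Markers of cell types were read for the same arrays. Of all genes, 2.25% were called higher and 0.997% lower at 4 h, and 3.48% higher and 3.52% lower at 24 h. The ratios hold no expression levels, so the presence of endothelial markers could not be checked against the label. Of 9 endothelial markers, Cldn5 was called higher at 4 h and Kdr and Eng lower, and at 24 h Kdr and Eng were called higher. Of 10 neutrophil markers, 0 were called at 4 h, and at 24 h 3 were called higher and 1 lower, with a list median of -0.099. At 4 h no marker of cardiomyocytes, monocytes and macrophages, lymphocytes, erythroid cells or fibroblasts was called. At 24 h, 1 monocyte and macrophage marker of 8 and 1 erythroid marker of 6 were called higher, and 1 erythroid, 1 cardiomyocyte (of 12) and 1 lymphocyte marker (of 8) lower, with 0 of 6 fibroblast markers called. The part of these cells in the values of the ribosomal protein genes was not tested.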

How the data were processed

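Per the labels, RNA was amplified, labelled with Cy3 and Cy5 and hybridised to Operon long-oligonucleotide arrays. The authors deposited log2 ratios of the dye channels for 32448 spots on 4 arrays. For scanner processing, background correction, filters and direction the labels name nothing, and without intensities the strength of a spot is unknown. With so few arrays the precision is low.

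The platform annotation gave 1 symbol for 24344 spots and several for 98, and it did not list 8006. Of the 70 members, 69 matched RefSeq of GRCm38.p6 by gene identifier with the same symbol, and Rpl5 by symbol. Values were averaged over duplicate spots and over a gene's oligonucleotides, turned in sign where Cy3 carried LPS RNA, and centred by subtracting the array's gene median. A ratio counted as exactly 1 within 1e-06. Named genes were all members called at either time, those 2-fold in opposite directions, extremes of each subunit, members separated by at least 2 log2 units, called genes of the lists, and a few others (among them Rpl11, Rpl38, Rpl41, Rpsa, Rps6, Fau and Mtor) chosen after their values were seen. The members and lists were chosen with earlier results of these data known.

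Alternatives covered the sign of array 2, centring, scale and quantile normalization, spot summaries, thresholds, paralogs, single arrays and limma 3.58.1 (R 4.3.3). The call rule and limma were tested on simulated data. Tables were made with Python 3.11.15 and pandas 2.3.3.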

Additional observations from a re-analysis of the deposited data

Results flagged for a closer look

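In 4 members, both arrays of one time lay on one side of 0 and both of the other time on the opposite side. Their means were also separated. The share of all genes meeting this rule was not counted, so the 4 members cannot be set against a background. Separation alone was met by 9.43% of all genes with the higher values at 24 h and by 10.3% with the lower. The mean at 24 h minus that at 4 h was 2.09 for Rpl39l, 1.58 for Rps27l, -1.31 for Rpl7l1 and -3.57 for Rpl8. Rpl39l, Rps27l and Rpl7l1 are paralogs. The differences were not tested over separate animals, since each time had 1 replicate. With arrays taken as samples, limma gave adjusted p-values of 0.66 to 0.68 for them, and unadjusted values of 0.021 for Rpl39l, 0.045 for Rps27l, 0.16 for Rpl7l1 and 0.026 for Rpl8. On array 1 of 24 h the spots of Rpl7l1 were -3.28 and 0.022, so its value there rests on 1 spot.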

How the results depend on the processing

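Of the recomputed counts and medians, 71 stayed within 1.5 times (counts) or 1 SD between arrays (medians) of the reported value, 35 moved and 4 changed sign. Without centring and under scale or quantile normalization, with spot medians, without ratios of exactly 1 and without paralogs, the members called higher numbered 11 to 13 at 4 h and 14 to 18 at 24 h. The members were 63 without paralogs, 60 without ratios of exactly 1 and 70 otherwise. Of all genes, 2.22% to 3.28% were called higher at 4 h and 2.1% to 3.84% at 24 h in these settings. With 1.5-fold they numbered 17 and 24 (all genes 4.94% and 8.37%), and with every spot 2-fold 11 and 15 (all genes 1.25% and 1.87%). Over oligonucleotides with duplicate spots within 0.5 log2 units and no ratio of exactly 1, 10 of 29 members were called higher at 4 h (all genes 2.73%), and at 24 h 10 of 27 (all genes 5.58%), with a median of 1.16. With the deposited sign kept, 1 member was called higher at 4 h and 3 at 24 h, none of them called otherwise. Of all genes, 0.781% and 1.71% were then called higher at these times. At 24 h 0 members were then lower, beside 1.98% of all genes. The medians were 0.17 at 4 h and 0.12 at 24 h. Members separated between the times then numbered 3 higher and 5 lower at 24 h, beside 5.11% and 6.55% of all genes. Means reversed to -0.36 for Rpl19, -0.032 for Rpl37a, -0.25 for Rplp0, -0.10 for Rplp2, -0.094 for Rps14 and -0.38 for Rps18 at 4 h, and to -0.25 for Rpl23, -1.26 for Rpl34, -0.24 for Rpl35, -0.80 for Rpl39, -0.80 for Rps24, -0.0082 for Rps27l and -0.42 for Rps7 at 24 h. This follows from the construction of that setting. The counts of 1 called lower gene rest on a single gene each. At 4 h they became 2 under scale normalization, 3 under quantile normalization, 0 with close duplicate spots, 3 at 1.5-fold and 0 with every spot 2-fold. At 24 h they became 0 without centring, under scale and quantile normalization and with every spot 2-fold, 2 without ratios of exactly 1 and 4 at 1.5-fold. The subunit difference became -0.22 under quantile normalization and -0.050 with close duplicate spots at 4 h, and 1.12 with close duplicate spots and -0.39 without paralogs at 24 h. Beyond construction, the cause of these changes was not tested. With one array left out, single arrays gave 20 to 25 members higher and 4 to 4 lower at 4 h, 26 to 30 higher and 5 to 11 lower at 24 h. Of all genes, 7% to 11.4% were higher and 5.69% to 9.37% lower on single arrays at 4 h, and 13% to 15.6% higher and 13.5% to 17.6% lower at 24 h, so the lower counts of the members are near or below the background. Single arrays gave medians of 0.0069 to 0.68 at 4 h and 0.46 to 0.68 at 24 h. The subunit difference on single arrays ran from -0.014 to 0.24 at 4 h and from -0.31 to -0.065 at 24 h. In limma, 0 members were called in either direction at 4 h or 24 h, and 0 in either direction with the dye orientation as a block between the times, where 15 members had an unadjusted p under 0.05. No paired analysis was possible because the labels number no replicates, and a dye reversal with no separate animals or extracts named was taken as the same pair of RNAs.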

Other observations

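The E-box letters CACGTG, recognised by Myc and its partner Max, were counted in the same promoters. They were on either strand in 6 of the 58 matched members (10.3%), against 8.09% of all genes of the promoter table. The 6 were 5 of the 23 members called higher at 4 h or 24 h and 1 of the 35 others. With so few promoters and no test, this is a description of letters only.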
